A study of Zea mays with 11 samples.

Results

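In anthers of *Zea mays*, 144 genes were silent or nearly so in the wild-type inbred line A344 and expressed in the *pam1* mutant. They were chosen by their counts in these same libraries: at most 3 counts summed over the 3 A344 libraries and a mean of at least 5 CPM (the count scaled to a common library total) over the 3 *pam1* libraries. The table has 44474 rows, of which 44146 carry Zm00001d gene identifiers. The identifiers Zm00001d027230 to Zm00001d027529, at the start of the table, were left out, and 5 rows among them met the same limits. Of the Zm00001d rows outside that interval, 17935 reached 5 CPM in *pam1* and 19229 had at most 3 counts in A344, so the 144 genes are where these classes meet. The difference between the groups chose the genes, so their levels are a description and no test is given of them.

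PAM1 (plural abnormalities of meiosis) is a protein with an RNA recognition motif, and the RNA-seq was done to compare anthers of its mutant with those of A344. RNA was taken from anthers at prophase I, when homologous chromosomes pair and recombine. A344 is labelled wild type and *pam1* is labelled as a mutant, with 3 libraries each. The labels name neither the *pam1* allele nor the line it is carried in, and do not say whether plants were pooled or whether replicates came from separate plants. Loss of PAM1 and differences between the lines therefore cannot be told apart here. P-values measure the spread between these libraries, which may be partly technical.

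Inbred lines of maize are known for large differences in gene content: a gene present in one line can be missing, broken or diverged in sequence in another. Expression differs between lines as well, through changes in promoters, nearby transposons and DNA methylation. Reads are counted against the gene models of a single reference line, so a low count can reflect an untranscribed gene or one whose sequence departs from the reference. These sources were not separated here.

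The deposited files pair none of the 144 identifiers with a gene name, and 0 were matched in the RefSeq gene table. The genes are described by identifier, level and place in the table, and no function is given. No sequence is shown, and anther markers could not be looked up by name. Library totals were 1918457 to 2595247 counts, so 5 CPM corresponds to about 10 to 13 counts in a library. For these genes, *pam1* replicate 3 was closer to A344 than *pam1* replicates 1 and 2 were (values are given further on), and results that rest on it are given with and without it.

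The group as a whole was expressed in every *pam1* library and close to absent from every A344 library. Summed over the 144 genes, *pam1* replicates 1 to 3 had 3857, 5377 and 3166 counts, or 1895, 2072 and 1581 CPM. A344 replicates 1 to 3 had 58, 64 and 44 counts, or 23.96, 33.4 and 19.4 CPM. The sum averaged 1849 ± 249 CPM over the *pam1* libraries, against 25.6 ± 7.13 CPM over those of A344 (SD, n = 3 per group). The genes took 0.158% to 0.207% of all counts in a *pam1* library.

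Every one of the 144 genes had a count in every *pam1* library, with a lowest value of 3 counts. In A344, 52 genes had no count in any library, 40 had 1, 30 had 2 and 22 had 3. A count of 0 allows up to 3 counts over the group, a limit that covers counting error only. Of the 92 genes with an A344 count, 52 had counts in 1 library, 40 in 2 and 0 in all 3. Under the limit of 3 summed counts, a gene could be seen in all 3 A344 libraries only with 1 count in each. The same limit fixed that none had more than 3 counts in one of them. The lowest *pam1* library lay above the highest A344 library for 144 of 144 genes. These counts chose the genes, so this separation is a description and not support for it.

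**Figure D1:**
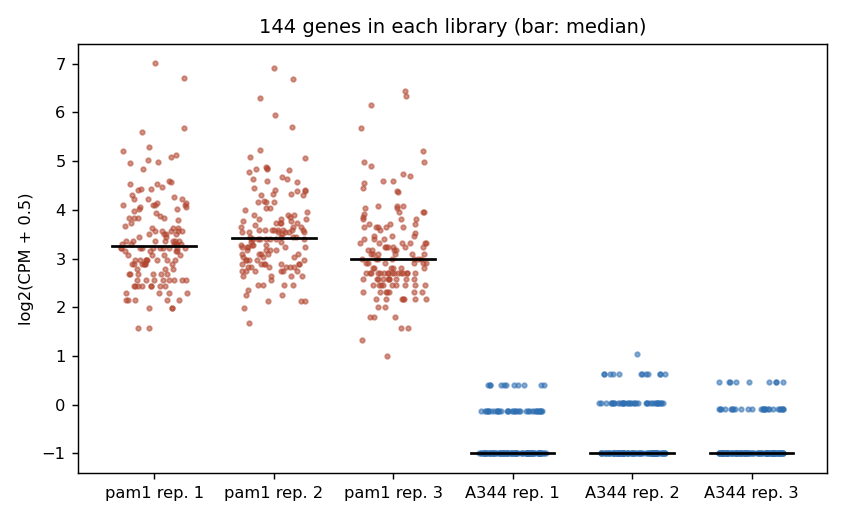
Level of each of the 144 genes in each library, as log2(CPM + 0.5), with the median as a bar. The lowest *pam1* point is at 1.498 CPM, and the A344 medians lie at the value of 0 counts.

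Most of the genes were weakly expressed in *pam1*. Mean levels ran from 5.08 to 111 CPM with a median of 8.86 CPM, and the middle of the range, between the 25th and 75th percentiles, was 6.20 to 13.6 CPM. Of the 144, 54 reached 10 CPM, 17 reached 20 CPM, 4 reached 50 CPM and 1 reached 100 CPM. The 10 genes with the highest means held 27.96% of the group's *pam1* counts.

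Zm00001d043751 had the highest mean of the group. It had 260, 312 and 172 counts in the *pam1* libraries (replicates 1 to 3, as in all lists here) against 0, 1 and 0 in A344, which put it at 111 ± 22.3 CPM in *pam1* (SD, n = 3). The ratio of its depth-scaled counts was 741, with an exact 95% interval of 133 to 29321. That interval, like those that follow, covers counting error only, and its width comes from the 1 count in A344. The counts that gave these intervals also chose the genes, so their place above 1 was fixed by the choice.

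Zm00001d005779 followed, with 210, 265 and 161 counts in *pam1* and 0, 1 and 1 in A344. It stood at 95.2 ± 12.9 CPM in *pam1* (SD, n = 3), and its ratio was 317 (95% interval 87.4 to 2622). Both of these genes were lowest in *pam1* replicate 3, and neither had more than 1 count in any A344 library.

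Zm00001d004085 was uneven among the *pam1* libraries. It had 62, 203 and 141 counts, at 30.5, 78.2 and 70.4 CPM, and 0 counts in A344. Its mean was 59.7 ± 25.6 CPM (SD, n = 3). Its summed *pam1* counts, scaled by the summed library totals, were at least 135-fold higher than A344, taking the floor as 3 counts in that group as a whole. Here replicate 1 and not replicate 3 was the low library.

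Zm00001d048253 was the most even of these 10 genes. Its *pam1* libraries had 103, 133 and 102 counts, which were 50.6, 51.2 and 50.9 CPM (50.9 ± 0.317 CPM, SD, n = 3), against 1, 0 and 0 counts in A344. The ratio was 337 (95% interval 60.04 to 13342). Zm00001d033657, at a similar mean of 46.6 ± 15.2 CPM (SD, n = 3), spread from 30.96 CPM in *pam1* replicate 3 to 61.3 CPM in replicate 2, with 1 count in A344.

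The next 5 genes had means of 28.3 to 34.3 CPM. Zm00001d032472 had 78, 87 and 62 counts in *pam1* and 0, 1 and 2 in A344 (34.3 ± 3.74 CPM in *pam1*, SD, n = 3). Zm00001d036420 had 70, 86 and 52 counts in *pam1* and 0 in A344 (31.2 ± 4.55 CPM in *pam1*, SD, n = 3). Its summed *pam1* counts, scaled in the same way, were at least 69.1-fold higher than the floor. Zm00001d003712 was highest in *pam1* replicate 3, with 65, 61 and 73 counts against 0, 2 and 0 in A344 (30.6 ± 6.57 CPM, SD, n = 3). These neighbours in the order do not differ beyond their spread.

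Zm00001d047234 had 63, 96 and 47 counts in *pam1* and 1, 0 and 0 in A344 (30.5 ± 6.77 CPM, SD, n = 3). Zm00001d008945 had 74, 60 and 51 counts in *pam1* and 0 in A344 (28.3 ± 7.07 CPM in *pam1*, SD, n = 3). Its summed *pam1* counts, scaled in the same way, were at least 61.4-fold higher than the floor. Among the 10 genes, 3 had no A344 count and 4 had a single one.

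**Figure D2:**
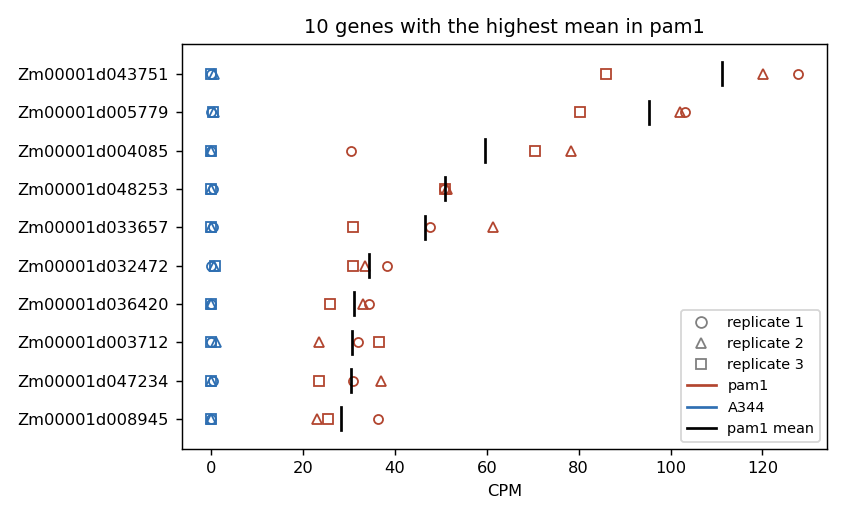
CPM of the 10 genes with the highest mean in *pam1*, 1 symbol for each replicate, red for *pam1* and blue for A344, with the *pam1* mean as a black bar. The A344 symbols sit near 0 for all 10 genes, and Zm00001d004085 shows its low value in *pam1* replicate 1.

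At the lower edge, Zm00001d007688 (12, 10 and 11 counts in *pam1* and 0, 1 and 0 in A344), Zm00001d028564 (10, 13 and 11, and 0, 1 and 0) and Zm00001d048135 (12, 17 and 6, and 0, 2 and 1) were just inside, at 5.08, 5.14 and 5.15 CPM. Just outside were Zm00001d052584 at 4.997 CPM and Zm00001d015880 at 4.99 CPM, with 0 counts in A344 each, and Zm00001d005307 at 4.95 CPM with 1 count. The limit on CPM therefore divides genes that look alike. On the A344 side, Zm00001d047967 was left out with 62, 70 and 43 counts in *pam1* and 1, 2 and 1 in A344, at 26.3 ± 4.54 CPM in *pam1* (SD, n = 3). Zm00001d021648 (12.7 CPM in *pam1*) and Zm00001d037562 (12.3 CPM in *pam1*) also had 4 A344 counts. Zm00001d047967 had a count in each A344 library, which no gene of the group had.

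Among the genes expressed in *pam1*, those near 0 in A344 were more numerous than those in the next classes of A344 counts. The lowest class is the group itself and the class edges follow its limit, so these numbers are a description. Single counts just past the limit were uneven, with 19, 30, 9 and 19 genes at 4, 5, 6 and 7 counts. Of the Zm00001d genes at 5 CPM or more in *pam1*, 144 had 0 to 3 counts over A344, 77 had 4 to 7, 76 had 8 to 11, 105 had 12 to 15 and 130 had 16 to 19. The number thus fell from the lowest class, then rose again. Within the lowest class, the numbers fell step by step from 52 genes at 0 counts to 22 at 3 counts.

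With all 3 libraries of each group, the reverse comparison did not have this shape. Of the genes at 5 CPM or more in A344, 25 had 0 to 3 counts over *pam1*, 50 had 4 to 7, 49 had 8 to 11, 51 had 12 to 15 and 54 had 16 to 19. Of these 25 reverse genes, 1 had no count in any *pam1* library. The count limit is sensitive to *pam1* replicate 3, which held 36 of their 56 *pam1* counts.

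With 2 replicate numbers in place of 3, a comparison chosen after the data were seen, the lowest class of A344 counts outnumbered the next each time. Without replicate 3, 167 genes had 0 to 2 counts over A344 and 115 had 3 to 5, and in the reverse direction the numbers were 66 and 50. Without replicate 1 they were 146 and 87, with 24 and 52 in reverse. Without replicate 2 they were 149 and 79, with 27 and 57 in reverse. With all 3 A344 libraries kept and *pam1* replicate 3 alone left out, the reverse numbers were 66 and 54. A further 39 genes had 6 to 8 counts and 66 had 9 to 11. Without that library the reverse numbers thus also fell from the lowest class and then rose. At 0 to 2 and 3 to 5 counts, the reverse numbers were 22 and 48 without *pam1* replicate 1, and 25 and 54 without *pam1* replicate 2.

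**Figure D3:**
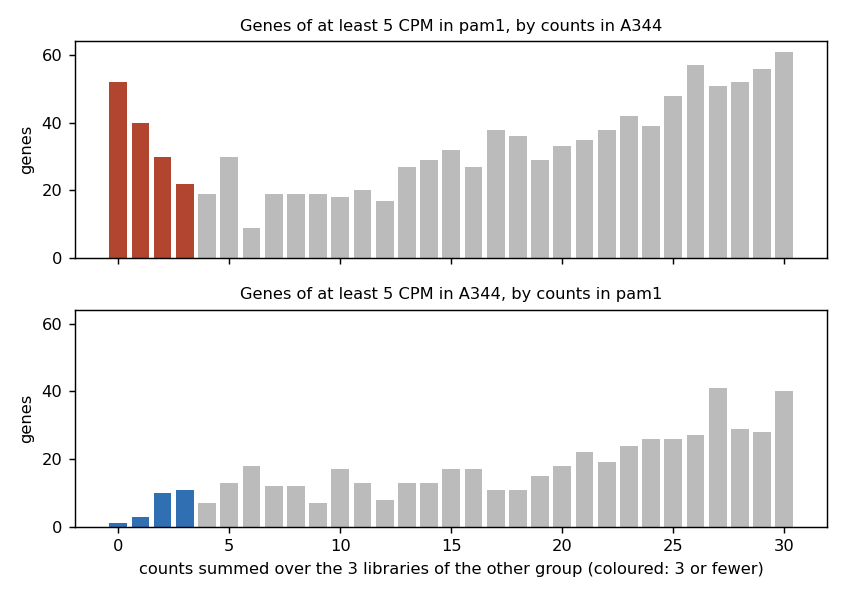
Number of genes (y axis) by counts summed over the 3 libraries of the other group (x axis, 0 to 30), for genes of at least 5 CPM in *pam1* (upper panel) and in A344 (lower panel). The coloured bars, 3 counts or fewer, hold 144 genes above and 25 below, and in the upper panel they fall from 52 to 22.

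The genes were also read in libraries that a repeated choice did not use. This is not a fully independent check. The libraries may come from the same plants, and the limits were set with earlier results of these data known. The limits were applied to 2 replicate numbers of each group, with at most 2 A344 counts, and the genes found were read in the remaining library of each group. With replicate 1 held out, 146 genes were chosen, and their median was 9.34 CPM in *pam1* replicate 1 against 0 in A344 replicate 1. With replicate 2 held out, 149 genes had medians of 10.8 CPM and 0. With replicate 3 held out, 167 genes had medians of 6.49 CPM and 0.

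The genes were expressed in the *pam1* library held out. None of the 146, 149 and 167 genes was at 0 counts there, and 80.8%, 85.9% and 67.1% reached 5 CPM. The *pam1* library lay above the A344 library for 146 of 146, 149 of 149 and 166 of 167 genes. The held-out level, as a median share of the level in the choosing libraries, was 97.8% in replicate 1, 108% in replicate 2 and 73.4% in replicate 3. With 1 library held out in each group, no test was possible.

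Absence from A344 also carried over for most genes. In the held-out A344 library, 59.6%, 51.7% and 67.1% of the genes had no count, and 2, 10 and 5 genes had more than 3. The gene farthest from 0, named after its value was seen, was Zm00001d023294, the one for which A344 was above *pam1* in the held-out pair. It had 29 counts in A344 replicate 3 (12.8 CPM), 1 in each of the other A344 libraries, and 11, 12 and 3 in the *pam1* libraries. In the other 16 such genes the held-out A344 library had 4 to 8 counts.

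The *pam1* libraries did not express the group equally, and replicate 3 was the low one. Per gene, the level in replicate 3 divided by the mean of replicates 1 and 2 had a median of 0.774, and 104 of 144 genes (72.2%) were below 1. The same ratio was 1.01 for replicate 1 and 1.20 for replicate 2. Replicate 3 was the lowest *pam1* library for 81 genes (56.25%), replicate 1 for 38 and replicate 2 for 25. Replicate 2 was the highest for 77 (53.5%). Among other genes of 5 CPM or more in *pam1*, replicate 3 was the lowest for 37.3% and replicate 2 the highest for 33.6%.

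Other genes of 5 CPM or more in *pam1* were nearly level in replicate 3, with a median ratio of 0.983 over 17791 genes. Of these, 53.55% were below 1. At matched levels the gap was similar: 0.772 for the 90 genes of the group between 5 and 10 CPM against 0.990 for 2864 others, and 0.766 for 37 genes between 10 and 20 CPM against 0.982 for 3977 others. Genes outside the group that were called higher in *pam1* by at least 3 on the log2 scale had a median of 0.792 (78 genes). Of these 78, 70.5% were below 1. All 1381 others called higher at 5 CPM or more had a median of 0.948, and those in the classes of 5 to 10 and 10 to 20 CPM had 0.931 and 0.932. The comparison rests on 1 library, so no test was made.

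In the reverse genes, replicate 3 was the *pam1* library with the most signal. The 25 genes summed to 4.42, 4.24 and 17.98 CPM in *pam1* replicates 1 to 3 and to 175 to 192 CPM in A344. Replicate 3 lay nearer to A344 in both directions.

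**Figure D4:**
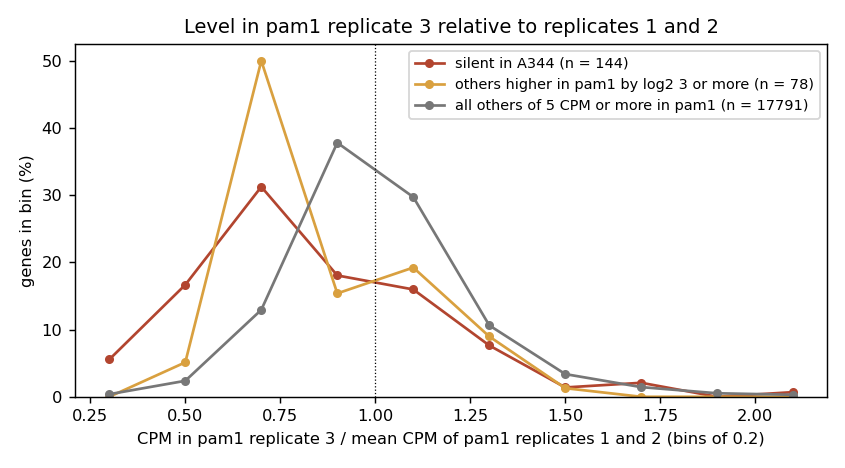
Share of genes (y axis, %) by the ratio of CPM in *pam1* replicate 3 to the mean of replicates 1 and 2 (x axis, bins of 0.2). The group and the other genes higher in *pam1* by 3 or more on the log2 scale peak between 0.6 and 0.8, and all other genes peak between 0.8 and 1.0.

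With all 3 *pam1* libraries, the median coefficient of variation of the group was above that of other genes of like level: 27.6% against 23.2% between 5 and 10 CPM, 22.7% against 17.2% between 10 and 20 CPM, and 22.2% against 11.99% between 20 and 50 CPM. With replicates 1 and 2 alone, the medians were 17.1% against 17.8% and 13.5% against 13.6% in the lower classes, and 15.1% against 9.18% between 20 and 50 CPM. The higher medians of the weakly expressed genes were thus not seen without replicate 3, while that of the 13 genes between 20 and 50 CPM was.

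The least even genes leaned to different libraries. Zm00001d045188 had 10, 27 and 3 counts in *pam1* replicates 1 to 3, and Zm00001d015028 had 11, 33 and 5, so that replicate 2 held 61.9% and 61.7% of their summed CPM. Zm00001d050673 leaned to replicate 3 with 5, 16 and 18 counts (51.04% in replicate 3), as did Zm00001d048783 with 10, 10 and 15 (46.1%). Replicate 1 held 49.7% for both Zm00001d024978 (31, 18 and 17 counts) and Zm00001d031685 (17, 9 and 10 counts). These genes had 0 to 2 counts over A344.

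The genes were spread over the whole table, whose rows mostly follow identifier order in 10 long stretches and a short tail. The stretches are numbered in table order. Not every cut between them falls at a jump in identifier numbers. For example, stretch 3 ends at Zm00001d039258 and stretch 4 starts at Zm00001d039259. Some identifiers also lie out of order within a stretch, so positions here are places in the table only. Each of the 10 long stretches held 9 to 24 genes of the group, and the tail held 1. The highest share was in stretch 3, with 24 genes, or 1.13% of its 2128 genes at 5 CPM or more in *pam1*, and the lowest was in stretch 4, with 12 genes, or 0.626% of 1918. With each stretch cut into 4 equal parts, from first to last row, the group had 40, 43, 28 and 33 genes, which were 0.907%, 1.11%, 0.609% and 0.651% of the genes at 5 CPM in those parts.

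**Figure D5:**
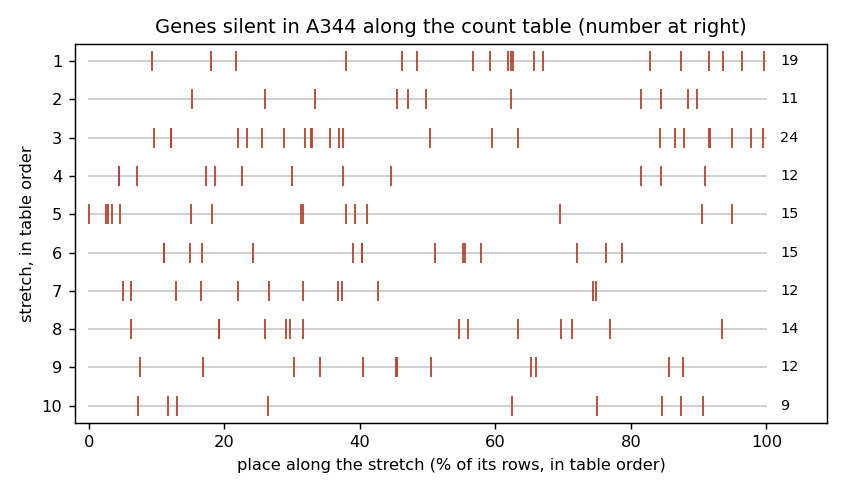
Place of the genes along the 10 long stretches of the count table, as % of each stretch's rows, with 1 tick per gene and the number of genes at the right. Every stretch holds at least 9 ticks, and stretch 3 holds 24.

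Clusters were small. The median distance between neighbouring genes of the group was 177 rows, and 21 of 89 windows of 500 rows held none, while no window held more than 5. There was no run of 3 or more genes within 5 rows of each other. There were 5 pairs, 4 of them in adjacent rows, and all are named here after their number was seen. Whether scattered genes would form fewer or more pairs was not tested.

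The choice fixed that both genes of a pair were low in A344 and present in *pam1*. Zm00001d002480 (20, 32 and 15 counts in *pam1*) lies next to Zm00001d002481 (24, 37 and 24), with 0 and 1 counts over A344. Zm00001d039484 (22, 25 and 15) lies next to Zm00001d039486 (18, 27 and 17), both with 0 counts in A344. These pairs stood at 9.88 and 12.7 CPM, and at 9.31 and 9.25 CPM.

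Zm00001d013397 (43, 73 and 33 counts) and Zm00001d013398 (11, 17 and 13) were also adjacent and at 0 counts in A344, at unequal levels of 21.9 and 6.15 CPM in *pam1*. Zm00001d015097 (14, 26 and 12) and Zm00001d015098 (12, 29 and 11) stood at 7.63 and 7.52 CPM in *pam1*, with 2 and 0 counts in A344. A single row separates Zm00001d019354 (22, 34 and 17) from Zm00001d019356 (9, 19 and 9), with 1 and 0 counts in A344. Replicate 2 had the most counts in all 10 of these genes, and it is the deepest library. Whether adjacent rows share reads or a transcript was not tested.

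Of the 144 genes, 101 passed the default filter on low counts of edgeR, and 101 were called higher in *pam1* by its quasi-likelihood test at a Benjamini-Hochberg adjusted p under 0.05, where 8.18% of all 18491 tested rows were called higher. In the authors' deposited table, all 144 genes were called higher in *pam1*, where 4.27% of 24906 rows with an adjusted p were called so. The rule used this contrast, and genes that passed the filter did so through their *pam1* counts, so nothing is read from these counts. The log2 values of the 144 genes in the authors' deposited table, A344 over *pam1*, ran from −9.43 to −3.43 with a median of −5.93. They depend on how that fit treats counts of 0.

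The rows beside the genes were not chosen by the rule, and most of those tested were not called in either direction. Of 1384 other rows within 5 rows of a gene of the group, 542 were tested by edgeR. Of these, 48 (8.86%) were called higher in *pam1* and 50 (9.23%) lower, against 8.18% and 6.68% of all tested rows. All tested rows include the 101 tested genes of the group, which were all called higher. In either direction, 18.1% of the tested neighbours were called, against 14.3% of tested rows that were neither neighbours nor in the group. Under DESeq2, 39 of 742 were called higher and 30 lower, which was 9.30% in either direction against 7.61% of all rows with an adjusted p. By edgeR their median log2 fold change was 0.01, and that of all tested rows −0.01.

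Of 100 tested rows directly adjacent to a gene of the group, 14 were called higher and 9 lower, where 8.18% and 6.68% of all tested rows were. Whether these shares differ from those of other rows was not tested. The numbers within 5 rows were 31 and 32 of 557 without *pam1* replicate 1, where 9.24% of all tested rows were called in either direction, against 11.3% of the neighbours. Beside the 10 strongest genes, 11 of 20 adjacent rows were tested and 1 was called, Zm00001d043752 next to Zm00001d043751, named after its value was seen. It had 45, 62 and 51 counts in *pam1* and 14, 10 and 21 in A344.

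Neighbours with large changes were found in both directions. The 3 that rose most, named after their values were seen, were Zm00001d032090, Zm00001d032376 and Zm00001d048784. Zm00001d032090, 3 rows from Zm00001d032087, had 104, 146 and 83 counts in *pam1* and 5, 4 and 2 in A344 (log2 fold change 4.83, edgeR adjusted p = 2.51e-07). Zm00001d032376, next to Zm00001d032375, had 61, 90 and 42 counts in *pam1* and 4, 3 and 2 in A344 (log2 4.32, edgeR adjusted p = 4.77e-06). Zm00001d048784, next to Zm00001d048783, had 39, 36 and 30 counts in *pam1* and 0, 3 and 2 in A344 (log2 4.27, edgeR adjusted p = 7.01e-05). Its log2 value was 3.63 without A344 replicate 1 and 5.03 without A344 replicate 2. They had 11, 9 and 5 counts over A344, past the limit of 3.

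The 3 neighbours that fell most had the opposite pattern to the group. Zm00001d020935 lies next to Zm00001d020936, a gene of the group with 15, 19 and 18 counts in *pam1* and 0, 1 and 1 in A344. Zm00001d020935 itself had 1, 3 and 4 counts in *pam1* and 38, 31 and 34 in A344, a log2 fold change of −3.65 (edgeR adjusted p = 3.31e-05). Their identifiers are consecutive, and their opposite values follow from how each was picked.

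Zm00001d026376, 2 rows from Zm00001d026374, had 0, 0 and 6 counts in *pam1* and 65, 51 and 34 in A344 (log2 fold change −4.58, edgeR adjusted p = 0.000186). Zm00001d008951, 4 rows from Zm00001d008945, had 0, 0 and 18 counts in *pam1* and 99, 82 and 86 in A344 (log2 −3.88, edgeR adjusted p = 0.000466). Each had all its *pam1* counts in replicate 3. Without that library the fitted log2 values were −8.69 and −9.52, which depend on the treatment of 0 counts, and without *pam1* replicate 2 they were −3.90 and −3.18. Under DESeq2 the call of Zm00001d008951 was lost (adjusted p = 0.345, range over its alternatives 7.81e-39 to 0.345).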

How the data were processed

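RNA-seq of 3 A344 and 3 *pam1* anther libraries was used, and the immunoprecipitation peak list was not. The authors deposited whole-number counts per row, not normalized. The submitters' processing notes list STAR, DESeq2, Bowtie2 2.4.5 and MACS2 but not what each was used for. The read counter, whether it used strand, and how it handled reads matching several rows were not given in the sources used here. Per the labels' protocols, libraries were made from total RNA with a directional kit. Per the file headers, the authors' deposited comparison has, for each row, a mean signal (size-factor scaled counts), a log2 fold change and its standard error, a Wald score, and p-values before and after adjustment. A positive log2 value there means higher in A344.

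A344 columns were matched to samples by name. The *pam1* columns are named PAML, unlike the sample descriptions. They were matched as the only mutant samples, with the replicate numbers carried over. CPM are counts over each library's total. The whole table was fitted with edgeR 4.0.16 in R 4.3.3 (TMM, default filterByExpr, quasi-likelihood, *pam1* minus A344, two-sided, Benjamini-Hochberg adjusted p under 0.05), and the step was tested on simulated data. DESeq2 1.42.0, other scalings, no filter, a replicate block and leaving out each library were alternatives. Same-numbered libraries deviated together (correlations of 0.133, 0.118 and 0.128 for replicates 1 to 3), a pairing that comes from the data and the numbers in the titles. Ratios carry exact conditional 95% intervals, which take no account of the choice of genes by the same counts. Other steps ran in Python 3.11.15 with pandas 2.3.3, scipy 1.17.1 and, for figures, matplotlib 3.10.9.

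Genes named are the 10 highest, those at the edges of the limits, the least even ones, close pairs, the 3 neighbours that fell most and, added later, the 3 that rose most. Members, lists and alternatives were chosen with earlier results of these data known.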

Additional observations from a re-analysis of the deposited data

How the results depend on the processing

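The number of genes depends on the limits, by construction. It was 251 at 3 CPM, 54 at 10 CPM, 52 at 0 A344 counts, 92 at no more than 1 A344 count, and 92 with 5 CPM required in every *pam1* library. TMM-scaled CPM left it at 144, with 144 shared. Leaving out 1 library gave 134 to 192 genes, with 157 without *pam1* replicate 3, of which 137 were shared. Of the 144 genes, 101 to 144 were tested in each fit run, and all of those tested were called higher. The same fits called 4.27% (DESeq2) to 9.71% (replicate block) of all tested rows higher. The same 101 genes were among those called each time. The rule used this contrast, so nothing is read from these counts. The replicate block called 101 of the 144 genes and 122 of 542 neighbouring rows (22.5%, where it called 18.1% of all tested rows), and changed the call of none of the 7 neighbours named with a call. The number of neighbouring rows called was 23 within 1 row and 201 within 10 rows, by construction, against 98 within 5. It was 63 to 102 when a library was left out, with 63 without *pam1* replicate 1. The median held-out share was 97.8% at 5 CPM and 103% at 10 CPM. The median ratio of *pam1* replicate 3 was 0.711 to 0.789 over scalings and ways of choosing the genes. Of 117 alternative values of named genes, 115 stayed within the spread or on their side of the threshold, 1 moved and 1 lost its call. Depth limits a gene of 5 CPM to about 10 counts in a library.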
